A study of Mus musculus with 4 samples.

Results

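Genes of the major histocompatibility complex (MHC) and of antigen presentation were examined in mouse invariant natural killer T (iNKT) cells. The members were the probe sets whose single platform gene symbol starts with H2- or belongs to a fixed set. That set holds genes of class I assembly, CD1d, MHC transcription and, with Cd74, the class II pathway. The members came to 49 of 41345 probe sets and to 45 of 22180 named genes, 34 of them with symbols starting with H2-. Of the named genes, Cd74 had no probe set named with it alone and was not analysed here, and the same holds for the classical class I gene H2-D1.

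The 4 Affymetrix arrays carried total RNA of iNKT cells, T cells with a semi-invariant receptor that recognise lipids on CD1d. On 2 arrays the cells came from CD4-Vα14Tg mice, whose Vα14 transgene encodes a T cell receptor α chain and is driven by the CD4 promoter, and on 2 they came from WT controls. The comparison asked how the transcriptome differs with the transgene. The extraction protocol speaks of frozen tissue. The labels give no strain, age, sex, organ or sorting gate, and nothing says whether the arrays of a group are separate animals or a pool, so p-values measure the spread between these arrays, which may be technical. The CD4 promoter is active from the CD4+CD8+ thymocyte stage onwards, which bounds the transgene as a model.

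MHC class I molecules consist of a heavy chain and the light chain β2-microglobulin, and present peptides that the TAP transporter carries into the endoplasmic reticulum, where tapasin, calreticulin, calnexin and ERp57 help to load them. Class II molecules present peptides from endosomes, with the DM proteins editing and the DO proteins restraining the loading. NLRC5 is the transactivator of class I genes and CIITA that of class II genes. CD1d is a class I-like molecule that presents lipids, and its display on thymocytes selects iNKT cells. Mouse T cells carry class I on their surface and little or no class II.

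Values are log2 RMA values, 1 per probe set and array. Array medians ran from 5.04 to 5.07. A gene was tested with limma when at least 2 arrays reached their 40th percentile over named probe sets, which was 4.65 to 4.69; 13602 genes passed, and 265 of them (1.95%) had an adjusted p under 0.05 (Benjamini-Hochberg over all genes tested). Genes below that level are called dim here. As a check of the label, the 8 of 10 iNKT and T cell markers with a probe set of their own, among them Zbtb16 and Cd3e, all passed the filter, at 9.52 to 12.45 on the log2 scale. Of these 8, 1 was called: Il2rb, the β chain of the interleukin-2 and interleukin-15 receptors, was lower in CD4-Vα14Tg cells (10.47 and 10.71 against 11.28 and 11.50, a 1.74-fold fall, limma adjusted p = 0.0427), a call lost when any 1 array was left out (limma adjusted p from 0.0591 to 0.179, and 0.00565 to 0.179 over all 12 alternatives). The mean of the 8 markers was 10.74 and 10.82 on the CD4-Vα14Tg arrays and 10.85 and 10.98 on the WT arrays, and the part of this in the results on the members was not tested. Of 30 tested members, 28 reached the filter on all 4 arrays, and Ciita passed through the WT arrays alone.

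The class I heavy chain gene H2-K1 and the class I gene H2-Q5, annotated as a transcribed pseudogene, fell in CD4-Vα14Tg cells, by 1.58-fold and 3.03-fold (n = 2 arrays each). No difference was detectable in the light chain gene or in the brightest probe sets of the loading genes. The H2-K1 call was lost when any 1 array was left out, and a second probe set of H2-Q5 gave a smaller log2 difference, -0.68, that did not pass limma's test. Of the 30 tested members these were the 2 that fell, 0 rose and 28 did not pass limma's test. In these bulk samples, fewer cells of a type and less RNA per cell cannot be told apart. Over all genes 1.34% were called lower and 0.61% higher. At an unadjusted limma p under 0.05 there were 5 lower members (H2-K1, H2-K2, H2-Q4, H2-Q5 and Nlrc5) and 4 higher ones (Cd1d1, H2-DMa, H2-Oa and H2-Ob), against 7.04% and 4.62% of all genes. The median log2 difference was -0.05 over the tested members and -0.02 over all genes tested. A negative difference was seen in 18 of the 30 members, Ciita among them, and in 55.9% of all genes.

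**Figure D1:**
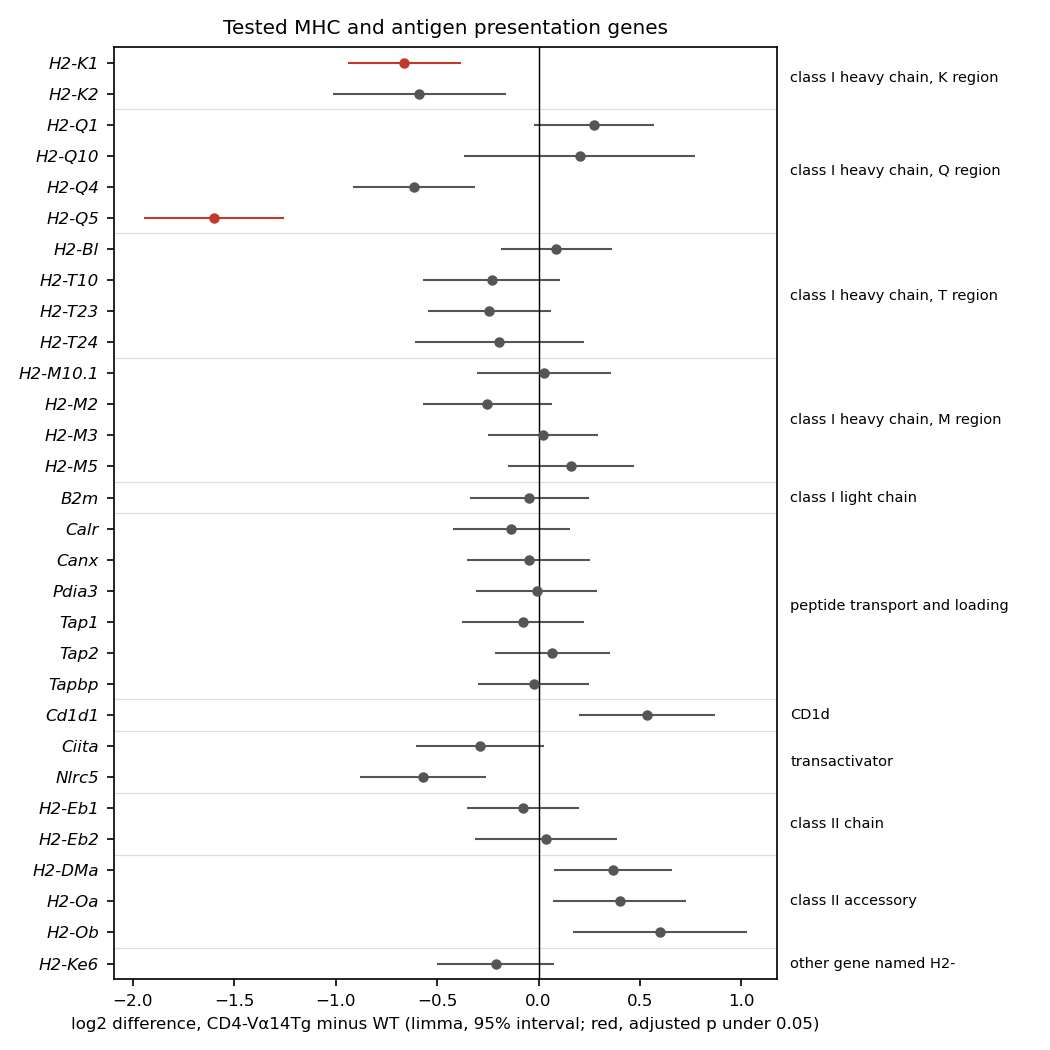
Log2 difference between CD4-Vα14Tg and WT cells for the 30 tested members (points) with limma's 95% interval (bars), grouped by role; red marks an adjusted p under 0.05, with 2 arrays in each group. H2-Q5 at -1.60 and H2-K1 at -0.66 are the red points, and the intervals of B2m and the 6 loading genes all include 0.

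The promoters of 4 members are shown because they stand for the different behaviours: H2-K1 was called lower, H2-Q4 had a difference of similar size, B2m had none that could be detected and H2-Ob had the largest positive difference. Each is the 250 bases before the annotated start (for H2-K1 the more downstream of its starts), from RefSeq, build GRCm38.p6. Promoters were held there for 31 of the 45 genes. The 14 without one include H2-Q5, which was also called lower, and H2-K2, Nlrc5, Cd1d1 and Ciita, so no motif count covers them. Capitals mark matches, on either strand, to CCAAT (bound by NF-Y), TGACG (part of the site of CREB and ATF factors), the interferon response cores TTTCNNTTC and TTCNNTTTC (bound by IRF factors) and GGGGATTCC (most of the κB site of the class I enhancer A). H2-K1 is at chr17:34000334-34000583 on the minus strand, H2-Q4 at chr17:35379367-35379616 on the plus strand, B2m at chr2:122147437-122147686 on the plus strand and H2-Ob at chr17:34238655-34238904 on the plus strand.
H2-K1: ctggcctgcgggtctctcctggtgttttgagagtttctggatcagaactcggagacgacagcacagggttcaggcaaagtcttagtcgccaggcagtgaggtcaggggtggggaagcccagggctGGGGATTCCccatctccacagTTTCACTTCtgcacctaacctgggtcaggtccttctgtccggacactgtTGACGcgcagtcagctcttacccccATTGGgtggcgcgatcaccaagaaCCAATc
H2-Q4: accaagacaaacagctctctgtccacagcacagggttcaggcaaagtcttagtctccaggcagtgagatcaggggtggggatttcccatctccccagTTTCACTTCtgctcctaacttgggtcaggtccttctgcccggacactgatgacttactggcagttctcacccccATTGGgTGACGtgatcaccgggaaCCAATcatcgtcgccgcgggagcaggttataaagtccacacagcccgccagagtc
B2m: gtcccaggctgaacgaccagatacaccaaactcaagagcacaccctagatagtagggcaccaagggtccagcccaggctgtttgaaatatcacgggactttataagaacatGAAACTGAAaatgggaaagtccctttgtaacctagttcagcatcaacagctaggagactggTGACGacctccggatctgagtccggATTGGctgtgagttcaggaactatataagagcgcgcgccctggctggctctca
H2-Ob: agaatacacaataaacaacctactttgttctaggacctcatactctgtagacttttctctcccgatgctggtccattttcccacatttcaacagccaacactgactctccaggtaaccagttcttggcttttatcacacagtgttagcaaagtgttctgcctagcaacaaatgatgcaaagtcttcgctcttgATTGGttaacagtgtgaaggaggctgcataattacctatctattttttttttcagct

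In the windows shown, the matches did not overlap each other. The core TTTCNNTTC stood 104 bases before the H2-K1 start and 153 before that of H2-Q4. It was found in 5 of 16 class I heavy chain promoters and in 6.31% of all 32851 promoter windows of this length. The other genes with it were H2-M2, H2-M3 and H2-Q10, with log2 differences of -0.25, 0.02 and 0.20 by their brightest probe sets. The CCAAT matches stood 30 and 6 bases before the annotated H2-K1 start and 79 and 55 before that of H2-Q4. The spacing between the TTTCNNTTC core and the CCAAT matches was the same in both windows. Only their distance to the annotated start differed. The core TTCNNTTTC was found in B2m, 139 bases before its start, and in H2-T23, and in 7.13% of all windows. The κB letters GGGGATTCC were matched in H2-K1, 125 bases before its start, in no other of the 31 member promoters and in 0.213% of all windows. Only these exact letters were searched. The H2-Q4 window shown holds the similar ggggatttccc before its TTTCNNTTC core, which the search did not match. CCAAT was present in 29 of the 31 member promoters, among them all 8 class II ones, against 33.8% of all windows, and TGACG in 13 of the 31, against 17.8%. For every motif, a member counted when any of its promoter windows matched, while the percentages count single windows. The member counts and the percentages are therefore not like measures. These are matches of letters, not measured binding.

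H2-K1 encodes the heavy chain of the classical class I molecule H-2K. It read 10.58 and 10.61 on the CD4-Vα14Tg arrays and 11.32 and 11.19 on the WT arrays. Both transgenic arrays lay below both WT arrays. The fall was 1.58-fold (10.59 ± 0.02 against 11.25 ± 0.09, SD, n = 2 arrays each; log2 difference -0.66, 95% interval -0.94 to -0.38, limma adjusted p = 0.0438). The call was lost when any 1 array was left out (log2 difference -0.73 to -0.60, adjusted p from 0.111 to 0.169), with no filter (adjusted p = 0.0553), with repeated quantile normalization (0.0537) and with median centring (0.0543); over all alternatives the adjusted p ranged from 0.0155 to 0.169.

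H2-Q5 lies in the Q region, which holds several closely related class Ib genes, and is annotated as a transcribed pseudogene in GRCm38.p6. Its brightest probe set read 6.93 and 7.18 on the CD4-Vα14Tg arrays and 8.53 and 8.78 on the WT arrays. That gap was the widest among the members, a 3.03-fold fall (log2 difference -1.60, 95% interval -1.95 to -1.25, limma adjusted p = 0.00326), and it passed under all 12 alternative settings (adjusted p from 2.04e-04 to 0.0147). A second probe set of H2-Q5 read 7.12 and 7.30 against 8.02 and 7.76, a log2 difference of -0.68 (limma adjusted p = 0.0569, with every probe set tested on its own). Neither probe set had overlapping groups, and the difference of the second was the smaller.

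H2-Q4 encodes a class Ib heavy chain. Its brightest probe set read 8.26 and 8.47 on the CD4-Vα14Tg arrays and 8.96 and 9.0 on the WT arrays, and its second read 5.84 and 5.89 against 6.59 and 6.28. Both placed the transgenic arrays below the WT arrays, with log2 differences of -0.61 and -0.57. The first did not pass limma's test (adjusted p = 0.0701), and it was past the threshold with the 60th percentile filter (0.0493) and with the trend and robust options (0.0484), with a range of 0.0233 to 0.259 over all alternatives.

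H2-K2, annotated as a transcribed pseudogene next to H2-K1, read 7.19 and 7.63 against 8.15 and 7.85. The groups did not overlap, but the arrays within each group were spread more widely than for H2-K1, and the log2 difference of -0.59 did not pass (95% interval -1.01 to -0.16, limma adjusted p = 0.221). Of the other members of the Q region, H2-Q1 had a log2 difference of 0.28 (limma adjusted p = 0.476). H2-Q10, known as the gene of a secreted class I-like protein of the liver, read 10.06 and 9.41 against 9.77 and 9.29, groups that overlap; its probe sets had log2 differences of 0.20 and -0.26, so its direction was not settled, and the mean of both was -0.03.

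Over the K and Q regions, 4 of 6 tested heavy chain genes, including the pseudogenes H2-K2 and H2-Q5, were lower without overlap and 1, H2-Q1, was higher without overlap. Over all members tested, 11 were lower and 6 higher without overlap. The 11 include Ciita, which passed the filter only through the WT arrays, where it was higher. Over all genes tested, 39.1% did not overlap, 23.4% lower and 15.7% higher. These genes are near-copies of each other, so probe sets may read several of them, and the separate contribution of each is uncertain. H2 genes also vary in sequence between mouse strains, and whether the probes matched both groups equally was not tested.

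**Figure D2:**
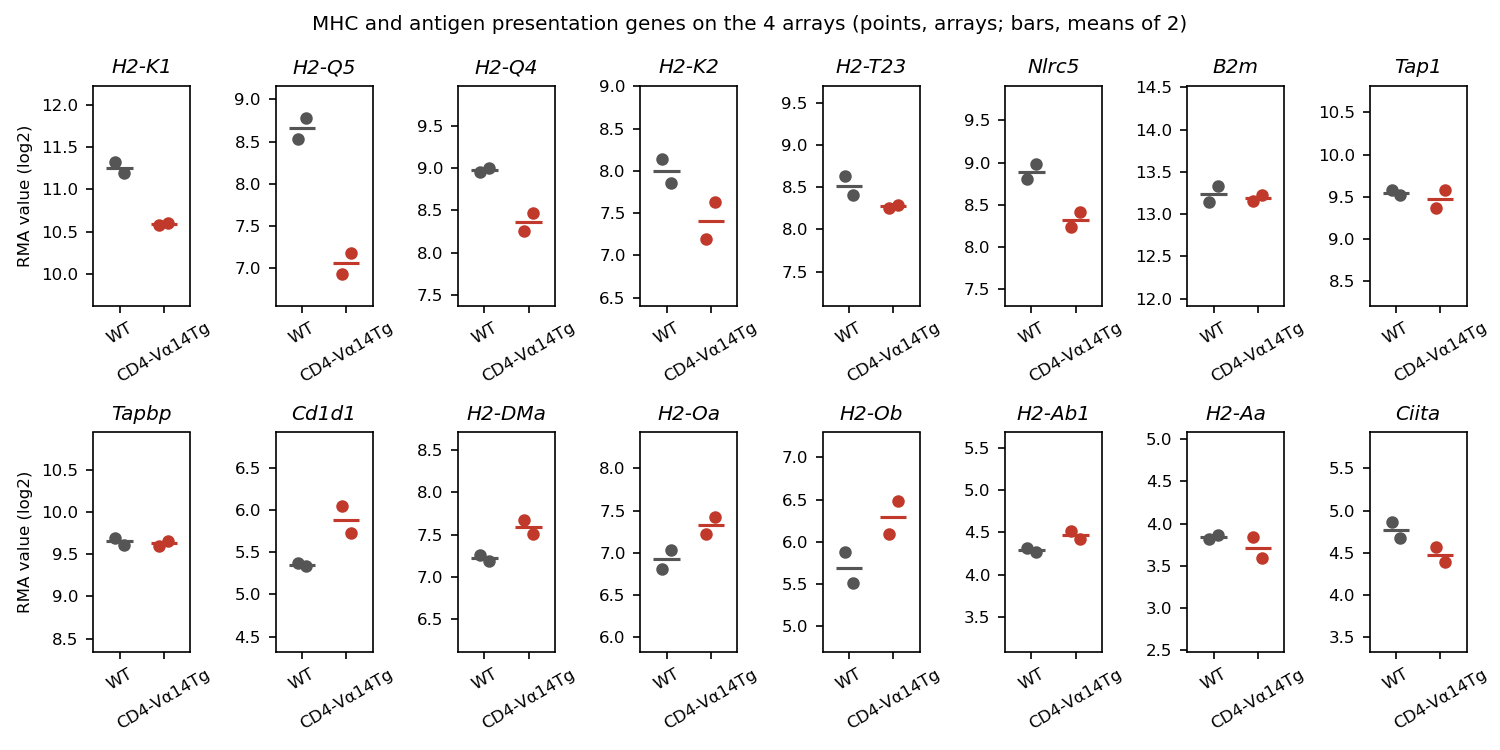
RMA values (log2) of 16 members on the 4 arrays; points are arrays, bars are means of 2, and all panels span the same log2 range. In H2-K1, H2-Q5, H2-Q4, H2-K2, H2-T23, Nlrc5 and Ciita both CD4-Vα14Tg points lie below both WT points. In Cd1d1, H2-DMa, H2-Oa, H2-Ob and the dim gene H2-Ab1 they lie above. Ciita passed the filter only through the WT arrays, where it was higher. Over all genes tested, 23.4% were lower and 15.7% higher without overlap.

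The T and M regions, which hold further class Ib genes, contributed 16 heavy chain genes, of which 8 were tested and 0 passed limma's test, also at an unadjusted p under 0.05. Their log2 differences ran from -0.25 to 0.16, with a median of -0.09. H2-T23 encodes Qa-1, the class Ib molecule whose complex is read by CD94/NKG2 receptors. It read 8.26 and 8.29 on the CD4-Vα14Tg arrays and 8.63 and 8.40 on the WT arrays, without overlap, a log2 difference of -0.24 (95% interval -0.55 to 0.06, limma adjusted p = 0.574). H2-T10 and H2-T24 had -0.23 and -0.19 with overlapping groups, and the direction of H2-T24 turned when 1 array was left out. H2-Bl had 0.09.

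H2-M3, the class Ib gene whose product presents N-formylated peptides, read 8.0 and 8.07 against 8.02 and 8.0. This was a log2 difference of 0.02 with an interval from -0.25 to 0.29. H2-M2, H2-M5 and H2-M10.1 had differences of -0.25, 0.16 and 0.03. The other 8 genes of the M region were dim, with values from 2.99 to 4.55 on the log2 scale.

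**Figure D3:**
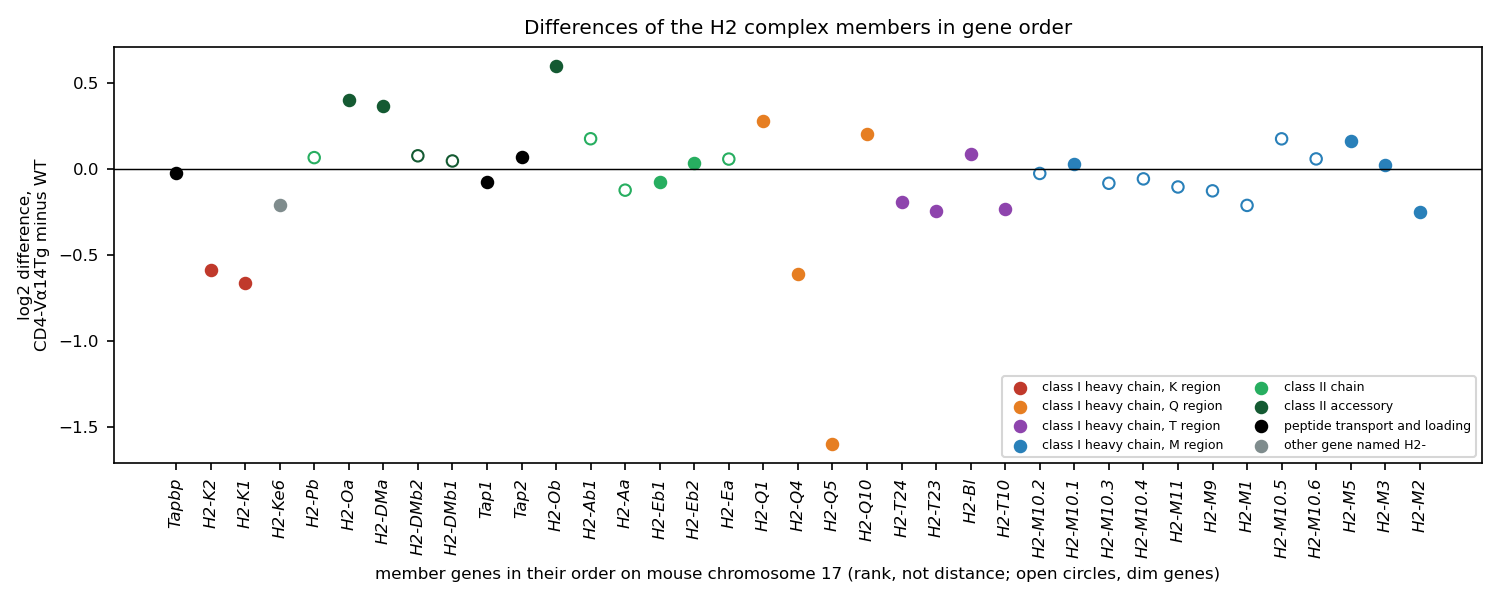
Log2 differences of the 37 members on mouse chromosome 17, in gene order (rank, not distance), coloured by role; filled points were tested and open points are dim genes. The lowest points are H2-Q5 at -1.60, H2-K1 at -0.66, H2-Q4 at -0.61 and H2-K2 at -0.59, which lie at both sides of the class II genes, while H2-Ob, H2-Oa and H2-DMa lie between them at 0.37 to 0.60.

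B2m, the light chain shared by all class I molecules and CD1d, read 13.16 and 13.23 on the CD4-Vα14Tg arrays and 13.15 and 13.33 on the WT arrays. The groups overlapped, and the log2 difference was -0.05 (95% interval -0.34 to 0.25, limma adjusted p = 0.967). Saturation of its probe set was not tested.

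Of 6 peptide transport and loading genes, each by its brightest probe set, 0 passed limma's test, also at an unadjusted p under 0.05, with log2 differences from -0.13 to 0.07 and a median of -0.04. Tap1, a subunit of the peptide transporter, read 9.37 and 9.58 against 9.58 and 9.53 (difference -0.08, interval -0.38 to 0.22, limma adjusted p = 0.928), and its partner Tap2 had 0.07. Canx (calnexin), Calr (calreticulin) and Pdia3 (ERp57), chaperones of the endoplasmic reticulum, had -0.05, -0.13 and -0.01.

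Tapbp encodes tapasin, which bridges TAP and the heavy chain. Its brightest probe set read 9.60 and 9.66 against 9.70 and 9.61, with a difference of -0.02 (interval -0.30 to 0.25). A second probe set read 6.99 and 6.81 against 7.47 and 7.33, without overlap, a log2 difference of -0.50 (limma adjusted p = 0.119, with every probe set tested on its own; the unadjusted value was under 0.05). The mean of both probe sets gave -0.26 (limma adjusted p = 0.453). The groups overlapped in the first probe set and not in the second, and neither passed.

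Nlrc5, the class I transactivator, read 8.23 and 8.41 on the CD4-Vα14Tg arrays and 8.80 and 8.98 on the WT arrays. The groups did not overlap, and the difference of -0.57 corresponds to 1.48-fold (95% interval -0.88 to -0.26), but it did not pass limma's test over all genes (adjusted p = 0.100). Leaving out 1 array moved it between -0.66 and -0.48 without a change of sign. Ciita, the class II transactivator, lay around the filter at 4.57 and 4.39 against 4.87 and 4.67, and its difference of -0.29 did not pass (limma adjusted p = 0.485).

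Cd1d1, the CD1d gene, read 6.05 and 5.72 on the CD4-Vα14Tg arrays and 5.37 and 5.33 on the WT arrays. Both transgenic arrays were above both WT arrays, a 1.45-fold difference (log2 difference 0.54, 95% interval 0.20 to 0.87) that did not pass limma's test (adjusted p = 0.150). Its sign held when each array was left out (0.37 to 0.70). Cd1d2, annotated as a transcribed pseudogene, was dim on all arrays, from 3.24 to 3.55. Immature CD4+CD8+ thymocytes display CD1d, and of 9 of their markers 8 had a probe set of their own. Of these, Rag2, Dntt, Cd8a, Cd24a and Arpp21 were dim and the other 3 were not called by limma. The mean of all 8 was 5.0 and 5.15 on the CD4-Vα14Tg arrays and 4.97 and 5.02 on the WT arrays, and the part of such cells in the Cd1d1 difference was not tested.

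Of 6 class II chain genes, 4 were dim in both groups, and the 2 tested, H2-Eb1 and H2-Eb2, did not pass limma's test. H2-Aa read 3.84 and 3.60 against 3.82 and 3.86, H2-Ab1 read 4.51 and 4.43 against 4.32 and 4.27, and H2-Ea read 3.85 and 3.89 against 3.83 and 3.80. H2-Ab1 and H2-Ea did not overlap between groups, but both lay below the filter. H2-Eb1 read 5.51 on both transgenic arrays against 5.64 and 5.53, a difference of -0.08 (interval -0.35 to 0.20, limma adjusted p = 0.920). H2-Eb2 had 0.04, and its sign turned without WT replicate 1.

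Among the class II accessory genes, the 3 that were tested all read higher in CD4-Vα14Tg cells without overlap, though 0 passed limma's test after adjustment; over all genes 15.7% were higher without overlap and 0.61% were called higher. H2-Ob, the β chain of DO, read 6.10 and 6.49 against 5.88 and 5.51 (log2 difference 0.60, 95% interval 0.17 to 1.03, limma adjusted p = 0.217). Its partner H2-Oa read 7.23 and 7.43 against 6.81 and 7.04 (0.40, interval 0.07 to 0.73, limma adjusted p = 0.287). H2-DMa, the α chain of DM, read 7.68 and 7.51 against 7.27 and 7.19 (0.37, interval 0.08 to 0.66, limma adjusted p = 0.270). The DM β chain genes H2-DMb1 and H2-DMb2 were dim, from 2.81 to 4.17, as was the class II pseudogene H2-Pb.

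Class II pathway genes are also expressed by B cells and other antigen-presenting cells, whose markers stood as follows. Of 12 B cell markers, 11 had a probe set of their own and 8 of these were dim, among them Ms4a1, Pax5 and Cd79a. The mean of the 11 was 4.30 and 4.38 on the CD4-Vα14Tg arrays and 4.42 and 4.25 on the WT arrays. Of the tested B cell markers, Cd79b, a B cell receptor chain, had a log2 difference of 0.48, Cd22 had -0.64 and Bank1 had 0.13, none past limma's test. Of 12 dendritic cell markers, 11 were named, and Itgax, Flt3, Siglech and Clec10a were dim. The mean of the 11 was 5.66 and 5.60 against 5.67 and 5.54, and the 1 call, Ccr9 (higher), is also a T cell homing receptor. The brightest of these markers, Cd209a, read 10.64 and 10.53 against 11.10 and 10.73 (log2 difference -0.33); it, Zbtb46 (-0.36) and Cd83 (-0.30) were lower without overlap, and none passed limma's test. Of 12 monocyte and macrophage markers, 7 were dim, among them Csf1r, Adgre1 and Lyz2; the mean was 5.30 and 5.24 against 5.46 and 5.44, and the 1 call, Fcer1g (lower), is also expressed by NK-like cells. The part of such cells in the differences of the members was not tested.

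H2-Ke6, which lies inside the complex but encodes a hydroxysteroid dehydrogenase rather than an MHC molecule, read 8.42 and 8.57 against 8.75 and 8.67 (log2 difference -0.21, limma adjusted p = 0.618). Values of the 15 dim members together lay between 2.81 and 4.55 (log2), and their differences ran from -0.21 to 0.17.

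Genes of antigen processing and MHC regulation outside the members were taken from a list of 49, of which 43 had a probe set of their own and 42 were tested. Among these, 4 fell, 1 rose and 37 did not pass limma's test, with a median log2 difference of -0.14, against -0.02 over all genes, of which 1.34% were called lower and 0.61% higher. All but 1 of the calls came from the interferon-γ axis, through which class I and class II genes are induced. Ifng, the cytokine itself, read 7.79 and 7.05 on the CD4-Vα14Tg arrays and 9.70 and 9.32 on the WT arrays, a 4.27-fold fall (limma adjusted p = 0.00889).

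The receptor chains of interferon-γ moved in opposite directions. Ifngr1, the ligand-binding chain, read 8.96 and 8.98 against 9.95 and 10.26, a 2.19-fold fall, and Ifngr2, the signalling chain, read 7.88 and 7.71 against 6.82 and 6.63, a 2.10-fold rise (limma adjusted p = 0.0108 for both). Irf8, an interferon-induced transcription factor, read 5.35 and 5.31 against 6.19 and 6.0, a 1.69-fold fall (limma adjusted p = 0.0310) that was lost when any 1 array was left out (0.0636 to 0.126) and with the mean of probe sets (0.254, range over all alternatives 0.00811 to 0.254). Irf1, which binds the interferon response element of class I promoters, and the feedback inhibitor Socs1 differed by -0.52 and -0.49 on the log2 scale (adjusted p = 0.382 and 0.143 by limma), with groups that did not overlap.

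The remaining call was Ctsd, the endosomal protease cathepsin D, at 10.37 and 10.27 against 11.16 and 11.05, a 1.72-fold fall (limma adjusted p = 0.0241) that was lost without any 1 array (0.0712 to 0.103, and 0.00630 to 0.103 over all alternatives). The 6 genes of PA28 and of the immunoproteasome, which produces class I peptides, had a median of -0.04 with 0 calls by limma. The 4 tested loading and trimming genes had -0.18 with 0 calls. Rfx5, a subunit of the factor that binds MHC promoters beside NF-Y, had -0.33 (limma adjusted p = 0.371), and the 7 transcription genes had a median of -0.13 with 0 calls. Among 10 lipid antigen and MHC-like genes, 0 were called and the median was -0.09: Fcgrt, an Fc receptor with a class I-like fold, had 0.40, and the lysosomal genes Gla and Npc1 had -0.38 and -0.34 (limma adjusted p from 0.187 to 0.344).

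**Figure D4:**
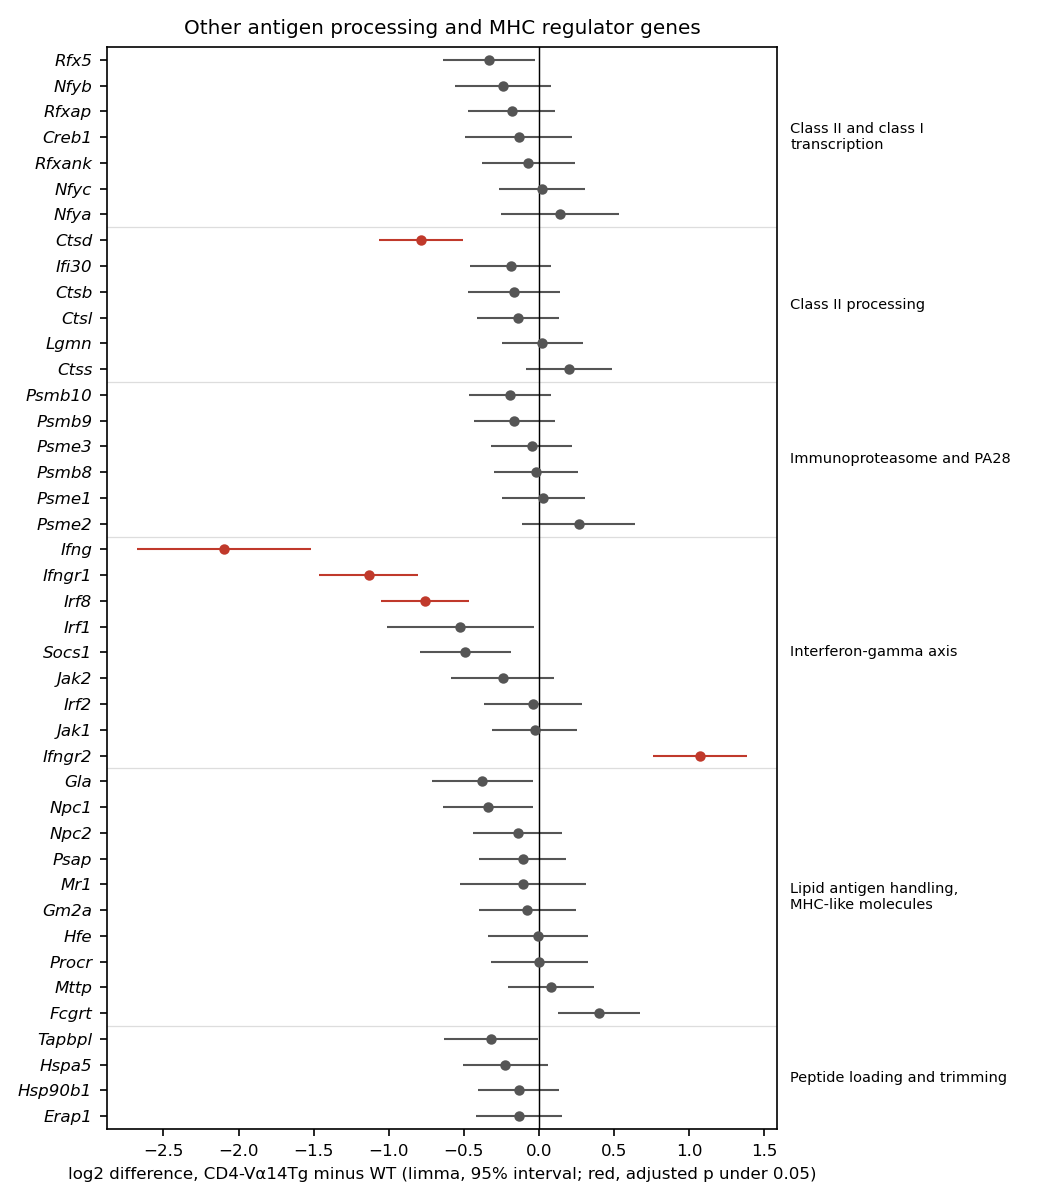
Log2 difference between CD4-Vα14Tg and WT cells for the 42 tested genes of antigen processing and MHC regulation outside the members (points) with limma's 95% interval (bars), by list; red marks an adjusted p under 0.05. Ifng at -2.09, Ifngr1 at -1.13, Ctsd at -0.79 and Irf8 at -0.76 are the red points to the left, and Ifngr2 at 1.07 the one to the right.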

How the data were processed

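Per the submitters' processing notes, the deposited log2 values were made by the authors with RMA (background correction, quantile normalization and probe summary) and Affymetrix Power Tools; for their versions and the genome build the entry is: not given in the sources used here. RMA removes differences in total RNA and compresses differences near background.

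Of 41345 probe sets, 23521 had 1 gene symbol in the platform annotation, 1814 had several and 16010 had none there; only the first kind was used. For genes with several, the probe set with the highest mean was kept, and 13602 genes at or above the 40th percentile on at least 2 of 4 arrays were tested with limma 3.58.1 in R 4.3.3 (lmFit, eBayes, CD4-Vα14Tg minus WT, two-sided, Benjamini-Hochberg, threshold 0.05). Each ± is the SD of 2 arrays, and this number limits the precision. Every adjusted p is from limma. The pipeline was tested on simulated data. Tables and plots used Python 3.11.15, pandas 2.3.3, numpy 2.4.6 and matplotlib 3.10.9.

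Members, lists, motifs and tests were chosen with earlier results of these data known. All tested members could be named, with array values for those called, those differing by at least 0.5 and central genes; other pathway genes were named if called or among the next 6 by moderated t. Alternatives were each array left out, the replicate number as a block, no filter or a 60th percentile filter, trend and robust options, repeated quantile normalization, median centring, and other handling of probe sets.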

Additional observations from a re-analysis of the deposited data

How the results depend on the processing

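With the array left out in turn, members called lower by limma numbered 1 each time and members called higher 0, over all genes 101 to 147 lower and 52 to 74 higher, and among the other pathway genes 2 each time lower, with their median from -0.1845 to -0.0915. The number of members called lower was 1 with no filter, 1 with repeated quantile normalization and 1 with median centring, where H2-K1 was lost. The labels give both groups the replicate numbers 1 and 2 without saying what they share; deviations from the group means correlated at 0.26 over genes for same-numbered arrays. With that number as a replicate block, 252 genes were called higher and 422 lower, 4 members were lower (H2-K1, H2-Q4, H2-Q5 and Nlrc5) and 1 was higher (Cd1d1, adjusted p = 0.0492, with 0.0492 to 0.439 over its alternatives). Nlrc5 had 0.0272 (0.0272 to 0.370) and Irf1 0.0405 (0.0405 to 0.781).

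Signs turned for 10 members, with main differences from -0.19 (H2-T24) to 0.20 (H2-Q10). Leaving out 1 array gave ranges of -0.1375 to 0.0475 for B2m, -0.15 to 0.22 for H2-Eb2, -0.12 to 0.18 for H2-M10.1, -0.0175 to 0.0615 for H2-M3, -0.12 to 0.53 for H2-Q10, -0.39 to 0.005 for H2-T24, -0.182 to 0.027 for Tap1, -0.066 to 0.017 for Tapbp, -0.1595 to 0.0615 for Canx and -0.1045 to 0.0865 for Pdia3. Repeated quantile normalization gave 0.0023 for Canx, 0.042 for Pdia3 and 0.018 for Tapbp, median centring gave 0.033 for Pdia3 and 0.017 for Tapbp, and the mean of probe sets gave -0.0285 for H2-Q10. The cause was not tested. For H2-K1, H2-K2, H2-Q4, H2-Q5, Nlrc5, Cd1d1, H2-DMa, H2-Oa and H2-Ob the sign held under every alternative run. Dim genes have compressed differences.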

Other observations

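Beside the members, 6 probe sets carry several gene symbols that all start with H2- and so name no single gene. Of these, 5 lay at or above the 40th percentile on at least 2 arrays, and those 5 read lower on both CD4-Vα14Tg arrays than on both WT arrays, against 23.4% of all genes tested. They include the probe set shared by H2-Q6 and H2-Q8 (log2 difference -1.38), both sets shared by H2-Q7, H2-Q8 and H2-Q9 (-0.62 and -0.87) and the one shared by H2-Q2 and H2-D1 (-0.58). The remaining one is a T region set, shared by H2-T22 and H2-T9 (-0.45). The log2 differences of all 6 ran from -1.38 to -0.01 with a median of -0.60, and 0 were higher without overlap. These values are a description, since such probe sets were not in the fit.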
